A study of Homo sapiens with 39 samples.

Results

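Pu27 and Pu9- are a pair of related guanine-rich DNA oligonucleotides, and their effects on the transcripts of U937 cells were set against each other after 72 h of exposure. The 3 arrays of cells given Pu27 for 72 h were compared with the 3 arrays of cells given Pu9- for 72 h, chosen by their labels. These 6 arrays are part of a series of 39 arrays in 13 groups, and all non-control probe sets entered the comparison. U937 is an established human line labelled as histiocytic lymphoma and widely used as a model of immature monocytes. In the 6 arrays the cells were in exponential growth when 10 µM of 1 oligonucleotide was added. The other groups at 72 h, used here for reference only, were cells left untreated and cells given 10 µM of Pu5-, another oligonucleotide, with 3 arrays each. The same pair of oligonucleotides was also measured at 24 and 48 h, again with 3 arrays per group. All cells came from a single line, and Pu9- is itself rich in guanine. Per the labels the samples came from 3 repeat experiments and nothing more is said of the cultures, so the p-values cover only the spread among the arrays of these groups, which may be technical.

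The molecules differ in length. Pu27 has 27 bases, 20 of them guanine, with 5 runs of 3 or more guanines. Pu9- has 20 bases, 15 of them guanine, with 4 such runs. Pu9- is identical to positions 7 to 26 of Pu27, so it lacks 6 bases of the 5′ end and 1 base of the 3′ end. Strands with several runs of guanine can fold into a G-quadruplex, in which guanines of separate runs stack in planar layers. A well-known element of this kind lies in the promoter of MYC, the transcription factor that drives growth and ribosome production, and the Pu27 sequence is that of this element. The cell cycle genes described below are controlled largely by E2F factors, which are held back by the RB family until cyclin-dependent kinases release them at the entry to S phase. In myeloid cells PU.1 and C/EBP factors control the genes of granules, receptors and oxidase subunits.

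Values are log2 RMA expression values of 1 probe set per gene, and differences are log2 values with Pu27 minus those with Pu9-, so a difference of 1 is a doubling. RMA gives every array nearly the same distribution of values, which hides changes in total RNA, and fewer cells of a type cannot be told apart from less RNA per cell. Any pair of the 6 arrays correlated at 0.991 or more over the genes, each with its 1 probe set. The array medians lay between 5.91 and 5.92 with Pu27 and between 5.87 and 5.90 with Pu9- (exact permutation test, two-sided, p = 0.1, the smallest that 3 against 3 arrays can give). The 3′ minus 5′ signal of ACTB was 2.24 ± 0.08 with Pu27 and 2.10 ± 0.19 with Pu9- (SD, n = 3, exact permutation p = 0.4), and that of GAPDH was 0.61 and 0.57 (exact permutation p = 0.6). The myeloid genes LYZ (13.01 with Pu27), ELANE (12.04), CEBPA (11.03) and AZU1 (10.39) were high, as was PTPRC (10.56), a gene of leukocytes in general. SPI1 (5.24), CSF1R (5.71) and MPO (4.96), which also mark the myeloid line, were low.

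At 72 h the genes called higher with Pu27 than with Pu9- included CCNE2, CLSPN and RRM2 of S phase, the myeloid genes ITGAM and RNASE2, and the MHC class II genes HLA-DRA and HLA-DMA. Those called lower included the mitotic kinesin gene KIF20A and the small nucleolar RNA gene SNORA33. The limma test with Benjamini-Hochberg adjustment over 18132 genes called 273 genes (1.51% of those tested) at a threshold of 0.05, 174 higher with Pu27 (0.96%) and 99 lower (0.546%). Most differences were modest, with a median of 0.51 among the genes called higher and -0.44 among those called lower. Only 7 genes differed at least 2-fold, the 6 higher genes CCNE2, SUCNR1, CX3CR1, RNASE6, CCDC80 and CD160 and the lower gene SNORA33. In 170 of the 174 higher genes every Pu27 array lay above every Pu9- array, as it did in 9.78% of all genes. In 93 of the 99 lower genes every Pu27 array lay below, as in 5.45% of all genes. The calls were made from these same arrays, so this separation adds no support to them. Over all genes the median difference was 0.04, and 61.3% of genes had a positive difference. This tilt lay with genes of low and middle level. Genes with a mean level between 4 and 5 had a median difference of 0.09, with 0.20 in the first replicate pair and -0.01 in replicate pair 3. Between 6 and 7 the median was 0.08, with 70.8% of genes higher, and the 3 replicate pairs had 0.09, 0.08 and 0.06. Between 7 and 8, 58.5% of genes were higher, whereas genes above 10 had a median of -0.02. The part of this tilt in the lists below was not tested. Counts of list members that were higher or called are to be read beside the 61.3% and 1.51% of all genes.

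The number of genes called moved with the arrays and the model. With the replicate number as a block, 599 genes were called (363 higher, 236 lower), among them all 273. Between 45 and 729 genes were called when 1 of the 6 arrays was left out. The lowest count came without Pu9- replicate 2, followed by 60 without Pu27 replicate 1, 97 without Pu9- replicate 3 and 174 without Pu27 replicate 2, and the highest came without Pu9- replicate 1. When all arrays of replicate 2 were left out of the fit 1 gene was called, without replicate 3 it was 14, and without replicate 1 it was 596. A fit of the 6 arrays alone called 15 genes, all higher. The share of calls that were higher, 63.7%, became 48.4% with the array medians set equal (225 called), 49.9% over every probe set (519 called) and 53.2% with the mean of a gene's probe sets (395 called). In all, 36 of the 273 genes (29 higher, 7 lower) were called whichever single array was left out.

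**Figure D1:**
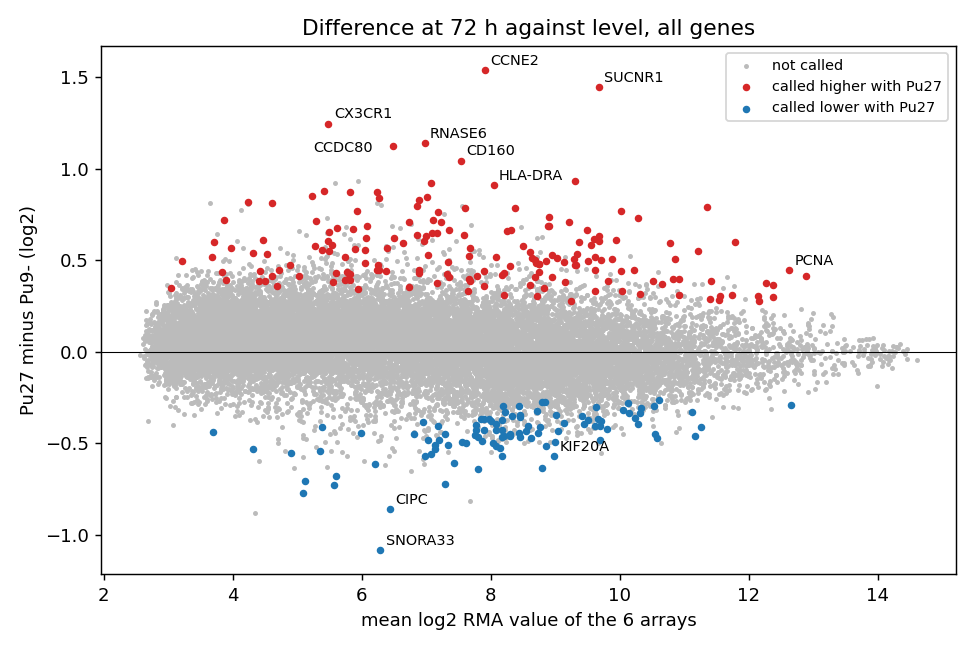
Each point is a gene, with its mean log2 RMA value over the 6 arrays on the x axis and the difference Pu27 minus Pu9- (log2) at 72 h on the y axis. The 174 genes called higher with Pu27 are red and reach 1.54 (CCNE2), and the 99 called lower are blue and reach -1.09 (SNORA33).

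CCNE2 differed most. It encodes cyclin E2, which activates the kinase CDK2 at the entry to S phase. Its level was 9.09, 8.59 and 8.38 in the Pu27 arrays and 7.43, 7.21 and 6.79 in the Pu9- arrays. The groups were well apart, with the lowest Pu27 array above the highest Pu9- array. The difference of 1.54 ± 0.24 (95% interval 1.06 to 2.02, adjusted p = 0.000428) is 2.91-fold, and a second probe set gave 1.25. Untreated cells had a mean of 6.79 and cells given Pu5- a mean of 8.01.

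Among the G1/S genes, 16 of 21 measured were higher with Pu27, as were 61.3% of all genes, with a list median of 0.23. The test called 2 higher and 2 lower (19.0% of the list, beside 1.51% of all genes). The other gene called higher was E2F2, an activating E2F factor, at 8.38, 8.31 and 8.33 with Pu27 and 7.69, 7.94 and 7.84 with Pu9- (0.52 ± 0.09, adjusted p = 0.00198). The listed genes called lower were a cyclin and an inhibitor. CCND2, cyclin D2, stood at 8.81, 8.82 and 8.86 with Pu27 and at 9.35, 9.26 and 9.18 with Pu9- (-0.44 ± 0.09, adjusted p = 0.00738). CDKN1B, the inhibitor p27, differed by -0.45 ± 0.12 (adjusted p = 0.0381), a call lost without any of 4 arrays, Pu9- replicate 2 or 3 or Pu27 replicate 1 or 3 (adjusted p = 0.0683 to 0.257). CDKN1A, the inhibitor p21, had a difference of 0.48 ± 0.14 and passed only with the replicate block (adjusted p = 0.0761 without it, 0.0275 with it). E2F5, an E2F gene outside the list, was called lower with overlapping groups (-0.51 ± 0.12, adjusted p = 0.0186), a call lost without at least 1 array.

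Of 43 DNA replication genes measured, 39 were higher with Pu27 and 4 lower, with a list median of 0.20 beside 0.04 over all genes. In 24 of the 43 every Pu27 array lay above every Pu9- array, as in 9.78% of all genes. The test called 4 of the 43 (9.3%, beside 1.51% of all genes), all higher, and 11 with the replicate block. CLSPN, the fork protein claspin, stood at 6.62, 6.14 and 6.17 with Pu27 and at 5.63, 5.65 and 5.34 with Pu9- (0.77 ± 0.13, adjusted p = 0.00164). CDT1, which loads the MCM helicase, stood at 9.73, 9.71 and 9.81 against 9.17, 9.32 and 9.28 (0.50 ± 0.10, adjusted p = 0.00948). The call of CDC6, the partner of CDT1 in loading, was at 0.47 ± 0.11 (adjusted p = 0.0226) and that of PCNA, the sliding clamp, at 0.45 ± 0.10 (adjusted p = 0.0108). Both ended without Pu9- replicate 3 or Pu27 replicate 1, and also without Pu27 replicate 2 for CDC6 and Pu9- replicate 2 for PCNA (adjusted p = 0.0704 to 0.118). The list median was between 0.17 and 0.22 with equal array medians, with quantile normalisation of the gene values and without any 1 replicate, and no member was called without replicate 2 or without replicate 3.

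E2F factors bind a short element close to the start of many replication genes, so the promoters of these genes were searched for it. The letters searched were TTTCCCGC, TTTCGCGC, TTTGCCGC and TTTGGCGC on both strands, in windows of RefSeq (GRCh38.p14) from 250 bases before to 50 after the gene start. These letters occurred in 59.5% of the 37 replication genes with a window, in 5.53% of the 14425 tested genes with one, in 8.76% of 137 genes called higher and in 2.41% of 83 called lower. A match is a description of the letters, not of a bound site. The windows of CLSPN and CDC6 are shown because both genes were called and each held a match, in capitals, whose first base lay 5 bases before the start in CLSPN and 7 after it in CDC6. They are written 5′ to 3′ on the strand of the gene to 30 bases after the start, with CLSPN at chr1:35769949-35770228 on the minus strand and CDC6 at chr17:40287629-40287908 on the plus strand.
CLSPN: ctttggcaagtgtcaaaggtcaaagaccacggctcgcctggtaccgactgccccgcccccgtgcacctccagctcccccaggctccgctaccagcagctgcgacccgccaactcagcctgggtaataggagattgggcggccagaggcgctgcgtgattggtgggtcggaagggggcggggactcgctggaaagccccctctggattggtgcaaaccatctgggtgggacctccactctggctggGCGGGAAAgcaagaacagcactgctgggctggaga
CDC6: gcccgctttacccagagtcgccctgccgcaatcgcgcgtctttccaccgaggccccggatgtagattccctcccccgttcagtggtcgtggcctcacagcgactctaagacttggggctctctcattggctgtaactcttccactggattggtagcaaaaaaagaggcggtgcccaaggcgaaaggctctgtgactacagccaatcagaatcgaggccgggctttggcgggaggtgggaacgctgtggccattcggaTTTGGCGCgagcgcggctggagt

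The list of nucleotide and folate synthesis genes was split, with 13 of 23 higher and a median of 0.01, but 4 enzymes that supply deoxynucleotides were called higher. RRM2, the small subunit of ribonucleotide reductase, was at 11.95, 11.82 and 11.48 with Pu27 and at 10.91, 11.17 and 10.79 with Pu9- (0.79 ± 0.15, adjusted p = 0.00551). TK1, thymidine kinase, was higher by 0.50 ± 0.11 (adjusted p = 0.0186). TYMS, thymidylate synthase, was higher by 0.37 ± 0.08 (adjusted p = 0.0168) and DUT, which removes dUTP, by 0.30 ± 0.08 (adjusted p = 0.0488). IMPDH2, the rate-limiting enzyme of guanine nucleotide synthesis, was the member called lower, at -0.29 ± 0.08 (adjusted p = 0.0429). The calls of RRM2 (without Pu27 replicate 1, adjusted p = 0.0684), TK1 (3 of the 6 arrays, up to 0.158), TYMS (4 arrays, up to 0.143), DUT (5 arrays, up to 0.223) and IMPDH2 (5 arrays, up to 0.224) ended when 1 array was left out.

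Mitotic genes did not share this direction. Of 30 measured, 12 were higher and 18 lower, with a median of -0.05, and the test called 2, both lower. KIF20A, a kinesin of the central spindle needed for cytokinesis, stood at 8.73, 8.80 and 8.57 with Pu27 and at 9.44, 9.30 and 9.08 with Pu9-, without overlap (-0.57 ± 0.10, adjusted p = 0.00143). With Pu5- its mean was 8.55, near that of the Pu27 arrays, and in untreated cells 9.28, near that of the Pu9- arrays. CENPE, the kinetochore kinesin, differed by -0.33 ± 0.08 (adjusted p = 0.0319, lost without Pu9- replicate 2 or 3 or Pu27 replicate 1, up to 0.240). CDC20, the activator of the anaphase-promoting complex, was at -0.29 ± 0.08 (adjusted p = 0.0577, and 0.0322 with the replicate block).

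The listed DNA repair genes and histone genes were balanced, with 12 of 21 and 10 of 20 higher and medians of 0.00 and 0.01. Repair genes called outside the list included XRCC4 (-0.50), RAD23B (-0.48) and XPA (-0.43) lower and FIGNL1 (0.45) and UBE2T (0.31) higher. Their adjusted p-values lay between 0.00601 and 0.0381. Of these only FIGNL1 kept its call whichever array was left out. FANCI, of the Fanconi pathway for crosslink repair, was called higher at 10.66, 10.77 and 10.70 against 10.30, 10.31 and 10.37 (0.39 ± 0.06, adjusted p = 0.00093). ATR, the kinase of the replication checkpoint, was called lower (-0.38 ± 0.10, adjusted p = 0.0399), a call lost without any of 5 arrays (up to 0.352). EXO1, an exonuclease of mismatch repair, at 0.43 and BRCA1, of homologous recombination, at 0.39 were not called (adjusted p = 0.104 and 0.0958), and EXO1 passed with the replicate block (0.016). H2AX, the histone variant phosphorylated at breaks, was called higher at 11.62, 11.52 and 11.34 against 11.21, 10.92 and 10.68 (0.55 ± 0.10, adjusted p = 0.00308, and 0.0514 without Pu9- replicate 3). H2BC12 at 0.52 (adjusted p = 0.130, and 0.0128 with the block) and H2BC21 at -0.47 (0.264), both H2B genes, went opposite ways.

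Of 28 monocyte and macrophage genes, 24 had a positive difference, with a median of 0.19, and 5 were called (17.9%), all higher. Over all genes 61.3% had a positive difference and 1.51% were called. At a level of 5 to 6, near that of this list, 73.8% of all genes had a positive difference. The fibroblast markers described below also had a median of 0.19. CEBPA, AZU1 and CD4, counted here among the markers of U937 and myeloid cells, had differences of -0.02, -0.06 and -0.10. ITGAM, the CD11b chain of an integrin of mature myeloid cells, was at 6.78, 6.59 and 6.72 with Pu27 and at 6.10, 5.64 and 5.83 with Pu9- (0.84 ± 0.17, adjusted p = 0.00676). Its mean was 5.75 in untreated cells and 5.85 with Pu5-, so only the Pu27 arrays stood above 6.3. Other probe sets of ITGAM gave 0.79 and, on a dimmer one, 0.18. TYROBP and FCER1G are adaptors that signal for many myeloid receptors. TYROBP stood at 8.92, 8.78 and 8.69 against 8.38, 8.06 and 8.21 (0.58 ± 0.11, adjusted p = 0.00385), and FCER1G at 9.79, 9.81 and 9.86 against 9.15, 9.18 and 9.14 (0.66 ± 0.16, adjusted p = 0.0235). CYBB, the catalytic subunit of the phagocyte oxidase, was dim, at 5.17, 5.11 and 4.79 against 4.44, 4.10 and 4.08 (0.81 ± 0.20, adjusted p = 0.0285).

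The fractalkine receptor CX3CR1 stood at 6.19, 5.92 and 6.21 with Pu27 and at 5.65, 4.58 and 4.35 with Pu9- (1.25 ± 0.26, adjusted p = 0.00895). The spread of the Pu9- arrays was wide, and a second, dim probe set gave 0.08. Each of the 5 calls among the monocyte genes ended without at least 1 of the arrays, TYROBP only without Pu9- replicate 2 (adjusted p = 0.0634), ITGAM without that array or Pu27 replicate 1 (up to 0.0738), and CX3CR1, CYBB and FCER1G without 3, 4 and 5 arrays (up to 0.0876, 0.165 and 0.0949). CD14, the receptor of monocytes for endotoxin, CD163, a scavenger receptor, and MRC1, the mannose receptor, were near background in both groups, at 3.4 to 3.5 with Pu27. The median of the list was 0.25, 0.27 and 0.15 in the 3 replicate pairs, and 0.14 after quantile normalisation of the gene values.

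Granule genes held 2 calls among 13 measured (15.4%, beside 1.51% of all genes). Of the 13, 9 were higher, with a median of 0.16, and 61.3% of all genes were higher. RNASE6, an antimicrobial ribonuclease, was at 7.73, 7.59 and 7.32 with Pu27 and at 6.38, 6.48 and 6.35 with Pu9- (1.14 ± 0.24, adjusted p = 0.00972, and 0.051 to 0.085 without Pu9- replicate 2 or 3 or Pu27 replicate 1). RNASE2, the eosinophil-derived neurotoxin, was at 10.12, 9.98 and 9.84 against 9.57, 9.34 and 9.23 (0.60 ± 0.10, adjusted p = 0.000499). PRSS57, a serine protease of granules, had a difference of 0.26 (adjusted p = 0.323), and the proteases ELANE and PRTN3 had -0.17 and -0.25. Among 17 uptake and scavenger receptor genes 11 were higher, with a median of 0.04 that was -0.02 after quantile normalisation, and besides ITGAM the scavenger receptor MARCO was called (0.65 ± 0.17, adjusted p = 0.0388, with overlapping groups, lost without any of 4 arrays, up to 0.268). ANXA2, a membrane-binding annexin, had 0.41 (adjusted p = 0.164, and 0.00729 with the block).

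All 14 MHC class II genes had a positive difference, with a median of 0.25, and 3 were called (21.4%). Over all genes 61.3% had a positive difference and 1.51% were called. MHC class II molecules present peptides to helper T cells. HLA-DRA, the alpha chain of HLA-DR, stood at 8.64, 8.41 and 8.45 with Pu27 and at 7.56, 7.67 and 7.54 with Pu9- (0.91 ± 0.13, 95% interval 0.65 to 1.17, adjusted p = 0.000114). The groups lay far apart, and the means of untreated cells (7.30) and of cells given Pu5- (7.61) were close to that of Pu9-. HLA-DMA, a chain of the peptide-loading molecule DM, stood at 5.79, 6.03 and 5.76 against 5.07, 4.88 and 4.98 (0.88 ± 0.18, adjusted p = 0.00738, and 0.0634 without Pu9- replicate 2). HLA-DRB1 was at 8.25, 7.88 and 7.77 against 7.43, 7.34 and 7.42 (0.57 ± 0.11, adjusted p = 0.00412, and 0.0779 without Pu27 replicate 1), and its probes may also bind transcripts of the near-identical DRB genes. Other probe sets gave 1.11 for HLA-DMA and 0.79 and -0.02 for HLA-DRA, the last on a dim probe set.

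CIITA, the master coactivator of class II genes, had a difference of 0.23 and CD74, the invariant chain, of 0.41, and neither was called. The factors that bind class II promoters, RFX5, RFXAP and RFXANK, had 0.02, 0.04 and 0.05. Many members were dim, and the list median was 0.43 in the first replicate pair and 0.16 in each of the others. It was 0.11 with the mean of each gene's probe sets, where 13 of 14 were higher. With the array medians set equal, and also after quantile normalisation, 13 of 14 were higher, with medians of 0.23 and 0.19 and the same number of calls.

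Class II promoters carry a Y box, an inverted CCAAT, and PU.1 binds GAGGAA in many myeloid promoters, so both were searched on either strand of the RefSeq windows. CCAAT occurred in 75.0% of the 12 class II genes with a window and in 42.4% of all tested genes with one. GAGGAA occurred in 71.4% of 21 monocyte genes and in 34.1% of all, and in 40.1% of the genes called higher. No motif searched lies within another, but GAGGAA and the inverted CCAAT can share a base. A row of at least 4 runs of 3 or more guanines, with gaps of 1 to 7 bases, on either strand occurred in 32.1% of the genes called higher, in 37.3% of those called lower and in 36.8% of all. The windows of HLA-DMA (chr6:32953068-32953347, minus strand, CCAAT boxes in capitals) and CYBB (chrX:37779809-37780088, plus strand, GAGGAA in capitals on the other strand) are shown because both were called and their matches lie within 80 bases before the start, at 79 and 49 bases in HLA-DMA and 48 bases in CYBB.
HLA-DMA: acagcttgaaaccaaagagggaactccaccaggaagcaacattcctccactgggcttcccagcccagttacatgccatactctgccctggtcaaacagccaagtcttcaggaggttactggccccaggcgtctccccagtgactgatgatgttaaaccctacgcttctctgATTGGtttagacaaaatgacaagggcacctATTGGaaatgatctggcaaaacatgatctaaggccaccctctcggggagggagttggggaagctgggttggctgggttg
CYBB: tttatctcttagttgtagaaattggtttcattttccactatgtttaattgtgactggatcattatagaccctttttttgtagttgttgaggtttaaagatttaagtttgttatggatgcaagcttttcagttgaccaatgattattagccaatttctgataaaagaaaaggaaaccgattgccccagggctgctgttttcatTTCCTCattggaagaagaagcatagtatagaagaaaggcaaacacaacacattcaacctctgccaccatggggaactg

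**Figure D2:**
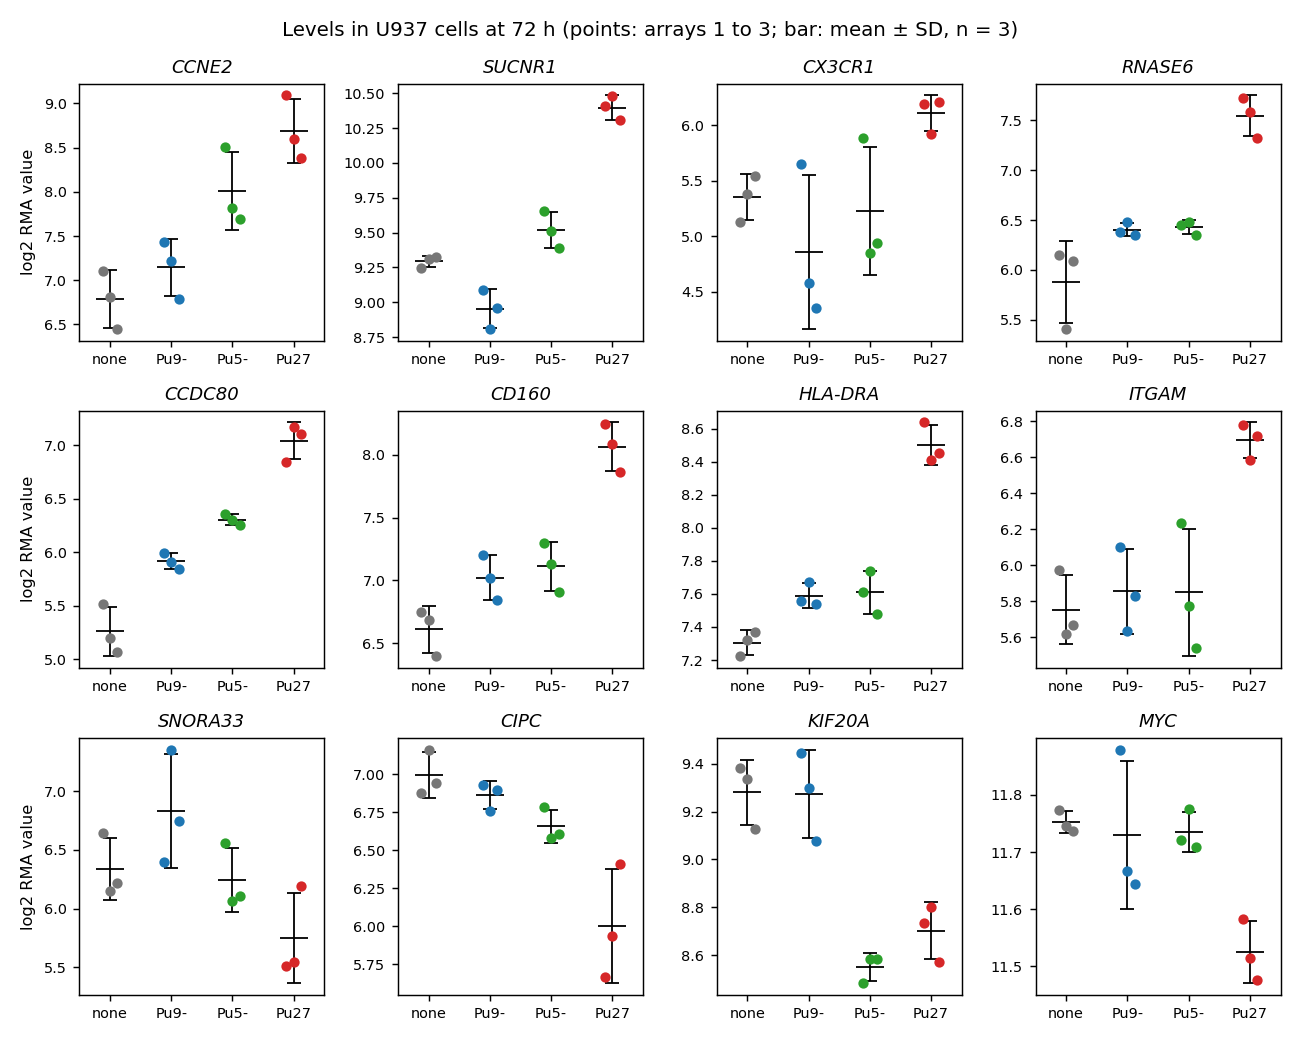
Log2 RMA values of 12 genes at 72 h in each array of untreated cells (none) and of cells given Pu9-, Pu5- or Pu27, with the mean and SD of the 3 arrays of a group as bars. The scale differs between genes and does not start at 0. The Pu27 arrays lie above all Pu9- arrays in the first 8 genes and below them in the last 4.

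SUCNR1, the G protein-coupled receptor for succinate, had the smallest p-value of the comparison. It stood at 10.41, 10.48 and 10.31 in the Pu27 arrays and at 9.09, 8.81 and 8.96 in the Pu9- arrays (1.44 ± 0.15, 95% interval 1.14 to 1.75, adjusted p = 4.81e-07). The Pu27 arrays lay above those of all the other groups of 72 h, whose means were 9.29 untreated and 9.52 with Pu5-. CD160, a receptor best known on natural killer and T cells, was at 8.24, 8.09 and 7.86 against 7.20, 7.02 and 6.84 (1.04 ± 0.15, adjusted p = 0.000114), and a second probe set gave 0.96. CCDC80, a secreted protein of the extracellular matrix, was at 6.85, 7.17 and 7.11 against 5.99, 5.91 and 5.85 (1.12 ± 0.16, adjusted p = 0.000114). Of its 5 other probe sets 3 gave 0.62 to 0.84 and 2 gave 0.09.

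The remaining genes with the largest differences had adjusted p-values of 0.00948 or less and no overlap between the arrays of the groups. TMT1A, a thiol methyltransferase, differed by 0.93 (other probe sets gave 0.90 and 0.79) and DNAJC5B, a J-domain protein of the cysteine string family, by 0.92. BPI, the bactericidal protein of granules, differed by 0.87, from 5.38 with Pu9- to 6.25 with Pu27. C3AR1, the receptor for the complement fragment C3a, differed by 0.87 and CLEC5A, a lectin receptor that signals through TYROBP, by 0.84. MS4A6A, a membrane protein of monocytes, differed by 0.83 and CCL23, a chemokine, by 0.80. The call of C3AR1 ended without Pu9- replicate 2 or 3 or Pu27 replicate 2 (up to 0.0751) and that of CCL23 without Pu9- replicate 2 or 3 or Pu27 replicate 1 (up to 0.0968).

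The genes called lower had smaller differences. The probe set of SNORA33, the gene of a small nucleolar RNA that guides pseudouridylation, stood at 5.51, 5.55 and 6.19 with Pu27. With Pu9- it stood at 6.40, 7.36 and 6.75 (-1.09 ± 0.17, adjusted p = 0.000489). Whether this probe set of a 3′ IVT array reads the mature small RNA or a longer transcript was not tested. CIPC, a repressor of the circadian factor CLOCK, stood at 5.66, 5.93 and 6.41 against 6.93, 6.76 and 6.90 (-0.86 ± 0.14, adjusted p = 0.000894). In both genes Pu27 replicate 3 lay closest to the Pu9- arrays. CHML, a Rab escort protein, stood at 8.30, 8.63 and 8.49 against 9.12, 9.22 and 8.99 (-0.63 ± 0.10, adjusted p = 0.000562).

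The other lower genes named by size included the zinc finger genes ZNF569 (-0.62), ZBTB2 (-0.61), IKZF5 (-0.53) and ZXDB (-0.51), the La-related gene LARP1B (-0.57), TDRD3 (-0.56), a tudor domain partner of topoisomerase 3 beta, and the splicing regulator PTBP2 (-0.51). CILK1, a kinase of cilia, was at -0.72, SOCS6, a suppressor of cytokine signalling, at -0.64, CRYZ, a quinone reductase, at -0.53 and MACIR, a regulator of macrophage metabolism, at -0.51. Of these 11 genes only MACIR kept its call without any single array, the others reaching an adjusted p of 0.0823 (IKZF5) to 0.365 (ZBTB2). ZXDB had a second probe set at 0.01, and the other probe sets of CILK1, all dim, gave -0.13 to -0.02.

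MYC was not called. Its level was 11.58, 11.52 and 11.48 with Pu27 and 11.88, 11.67 and 11.64 with Pu9-, and no Pu27 array reached a Pu9- array. The difference of -0.20 ± 0.11 had a 95% interval from -0.42 to 0.01, an unadjusted p of 0.0601 and an adjusted p of 0.363 (0.325 with the replicate block). The means of untreated cells (11.75) and of cells given Pu5- (11.73) were close to that of Pu9- (11.73). Among the 13 genes of the MYC and MAX network, 8 were higher and 5 lower with a median of 0.01, none was called, and the sign of the median turned with equal array medians (-0.02).

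Ribosome biogenesis genes include many MYC targets. Of 30 measured 26 were lower with Pu27, with a median of -0.18, and in 9 every Pu27 array lay below every Pu9- array, as in 5.45% of all genes. The median was -0.32, -0.16 and -0.08 in the 3 replicate pairs, and between -0.23 and -0.11 with equal array medians, with quantile normalisation and without any 1 replicate. DDX21, an RNA helicase of the nucleolus, was the 1 listed gene called, at 11.05, 11.01 and 11.10 against 11.33, 11.57 and 11.48 (-0.41 ± 0.09, adjusted p = 0.0135). Its call was lost without any of 4 arrays (up to 0.127). Outside the list, genes of ribosome production called lower included MDN1 (-0.49), NOC3L (-0.45), ZNHIT6 (-0.39), DDX10 (-0.37), GTPBP4 (-0.34), MTREX (-0.30) and NOL8 (-0.28). Their adjusted p-values lay between 0.0168 and 0.0448, and each call was lost without at least 1 array. Such genes outside the list were not counted by direction. UTP20 at -0.44 (adjusted p = 0.0852) and BYSL at -0.36 (0.0534, and 0.00876 with the block), both factors of the small subunit, were not called. The genes above a level of 10 had a median of -0.02, and the list held genes from dim to bright. Cytosolic ribosomal protein genes stayed within 0.17 of 0, with RPL13 and RPL7 at -0.17, RPS6 at -0.08 and a median of 0.00.

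Among 14 G-quadruplex helicases and binding proteins 9 were lower, with a median of -0.08, and over every probe set of these genes 46 of 56 were lower. DHX9, an RNA and DNA helicase that unwinds these structures, was called at 8.66, 8.74 and 8.57 against 9.03, 8.87 and 8.90 (-0.28 ± 0.07, adjusted p = 0.0379), and the call was lost without any of 5 arrays (up to 0.135). PIF1, a helicase of the same substrates, was at -0.47 ± 0.17 (adjusted p = 0.164, and 0.0236 with the block), and BRIP1 was at 0.22.

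Interferon-stimulated genes were higher in 23 of 30, with a median of 0.10 that was 0.04 after quantile normalisation. This was near the value of all genes at a level of 5 to 6, of which 73.8% were higher with a median of 0.09. The median level of the list was 5.87 with Pu27 and 5.54 with Pu9-. Of the listed genes 1 was called, SAMD9, a restriction factor of poxviruses, at 5.75, 5.91 and 5.69 against 5.72, 5.11 and 4.70 (0.60 ± 0.16, adjusted p = 0.0498). Its groups overlapped, and the call was lost without any of 5 arrays (up to 0.322) and with equal array medians. IFITM1, an interferon-induced gene outside the list, was called higher, with means of 9.29 against 8.77 (0.51 ± 0.09, adjusted p = 0.00119). The groups of IFITM1 did not overlap, and its call held whichever single array was left out. Other such genes outside the list were not counted. CMPK2, a mitochondrial nucleotide kinase, at 0.50 and IFI6 at 0.43 were not called (adjusted p = 0.171 and 0.0521, and 0.0497 and 0.00185 with the block). Nucleic acid sensing genes had 12 of 19 higher, a median of 0.02 that was -0.03 after quantile normalisation, and no call. The DNA sensor AIM2 was at 0.48, SAMHD1, which hydrolyses deoxynucleotide triphosphates, at 0.31 and the DNA sensor IFI16 at 0.29.

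None of the 25 inflammatory genes was called. CXCL8, the chemokine interleukin 8, stood at 6.15, 6.20 and 5.79 with Pu27 and at 5.05, 5.15 and 5.18 with Pu9-, without overlap (0.92 ± 0.37, adjusted p = 0.227). In a fit of the 6 arrays alone, where only their own spread counted, its adjusted p was 0.0307, and with the mean of its probe sets the difference was 0.24. DUSP6, a phosphatase that switches off ERK, behaved alike, at 8.01, 8.04 and 7.82 against 7.23, 7.11 and 7.14 (0.80 ± 0.25, adjusted p = 0.101, and 0.0298 in the 6 arrays alone). IL1B at 0.60 and CCL2 at 0.58, both cytokines, were not called either. In all, 16 of the 25 inflammatory genes (median 0.09) and 16 of 26 AP-1 and immediate early genes (median 0.11) were higher and none was called. FOSL2, an AP-1 subunit, was at 0.51 (adjusted p = 0.178, and 0.0137 with the block), and the phosphatase DUSP5 was at 0.40.

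No member was called in 10 further lists, and their medians lay between -0.06 and 0.07, some of which turned sign with another scaling. For p53 targets the median was -0.06 over 16 genes, with the apoptosis gene BAX at 0.36, the repair gene DDB2 at 0.31 and the apoptosis gene BBC3 at -0.30. BCL2 family genes had 8 of 14 higher, with BCL2A1 at 0.40, BOK at 0.19 and BMF at 0.18. The selenoproteins GPX3, GPX4 and SELENOT were at 0.25, 0.22 and -0.20, and the redox genes CHAC1, KEAP1 and GCLM at 0.31, 0.30 and -0.27. The lipid synthesis genes ELOVL6, EBP and ACAT2 were at 0.39, 0.29 and 0.29, and the hypoxia and glycolysis genes ANKRD37, ENO2 and NDRG1 at -0.35, 0.32 and 0.23. The chaperones HSPA4, HSPE1 and HSPB1 were at -0.28, -0.19 and 0.14, and the stress response genes CRELD2 and PSPH at 0.27 and 0.26. The lysosomal genes ATP6V0D1, GLA and MCOLN1 were at 0.44, 0.30 and 0.28, GLA passing with the block (adjusted p = 0.0186). Oxidative phosphorylation genes had a median of -0.04, with ATP5F1C, NDUFB8 and NDUFV1 at -0.22, 0.18 and 0.15. In the list of metal genes the zinc transporter SLC39A10 was called lower (-0.28 ± 0.08, adjusted p = 0.0475, lost without any 1 of the 6 arrays, up to 0.171), with SLC30A1, a zinc exporter, at -0.32 and TFRC, the transferrin receptor, at -0.31.

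Markers of other cell types were not called. The medians were 0.16 over 7 T cell genes (LCK 0.27, IL7R -0.26, CD3E 0.25), 0.16 over 6 B cell genes (PAX5 0.21, MS4A1 0.16, FCRLA 0.16) and 0.11 over 4 erythroid genes (KLF1 -0.26, GATA1 0.16, HBB 0.16). They were 0.05 over 6 epithelial genes (CLDN4 0.21, CDH1 0.18, KRT18 0.16) and 0.19 over 6 fibroblast genes (COL3A1 0.25, PDGFRB 0.23, COL1A2 0.19). These genes were mostly dim, with a median level of 4.92 for T cell and 4.37 for fibroblast genes, and PAX5 was the brightest at 9.19. Summed over its genes on the linear scale, the fibroblast list had a log2 level of 7.17 to 7.46 with Pu27 and 7.05 to 7.22 with Pu9-, and the T cell list 7.66 to 7.94 and 7.51 to 7.73. The B cell list had 9.73 to 9.77 and 9.47 to 9.63, the epithelial list 8.06 to 8.27 and 7.98 to 8.08, and the erythroid list 8.26 to 8.66 and 8.35 to 8.44. The epithelial list had medians of -0.04, -0.01 and -0.003 in replicate pairs 1, 2 and 3. The positive medians of the other lists lay mainly in the first replicate pair, at 0.57 for fibroblast and 0.36 for T cell genes, beside -0.09 and -0.05 in replicate pair 3. Their part in the myeloid and class II results was not tested.

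**Figure D3:**
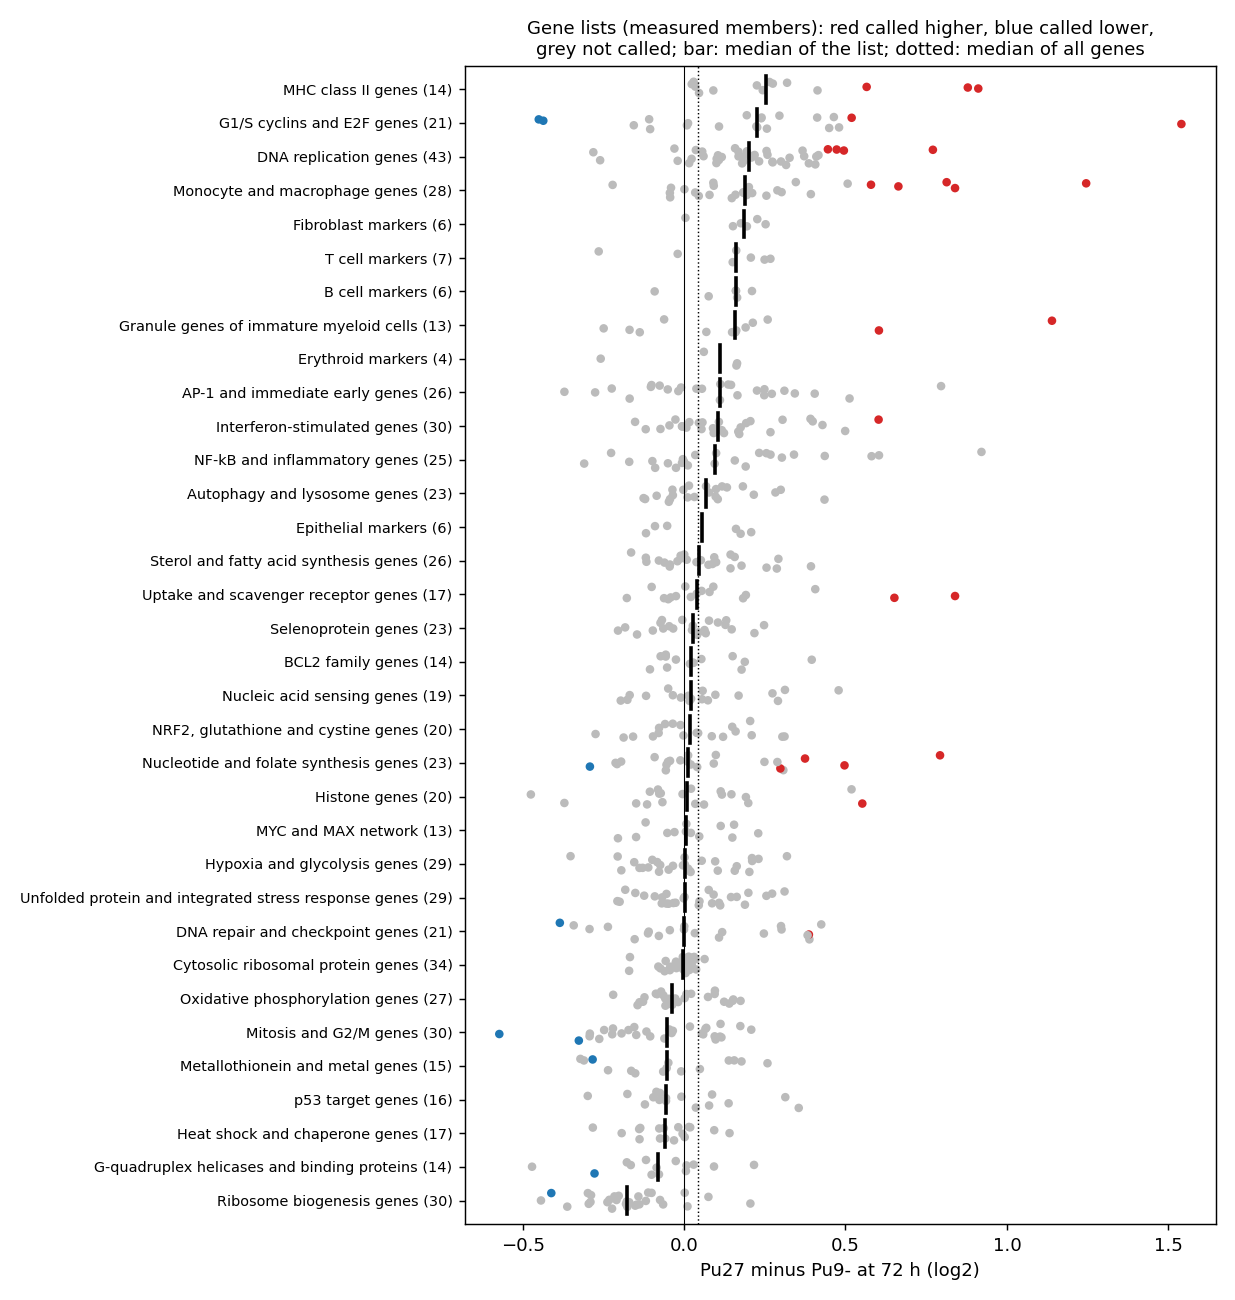
Each point is a measured gene of a list (number of genes in brackets), placed by its difference Pu27 minus Pu9- at 72 h (log2), red where called higher, blue where called lower and grey otherwise. The black bar is the median of the list, from 0.25 for MHC class II to -0.18 for ribosome biogenesis genes, and the dotted line is the median of all genes, 0.04.

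The same pair of oligonucleotides at 48 h shares no array with the comparison at 72 h. At 48 h the test called 12 genes (0.0662%), 6 higher and 6 lower, and 48 with the replicate block, and 8 of the 12 were also called at 72 h. KIF20A differed by -0.73 at 48 h (adjusted p = 0.0003), CCDC80 by 1.10 (0.000514), ITGAM by 1.08 (0.00142), CDC20 by -0.50 and CENPE by -0.46. The others called at 48 h were CCNE2 (1.27), SUCNR1 (0.75), the formyl peptide receptor gene FPR2 (0.80), LRRC7 (0.60, near background) and the mitotic genes AURKA (-0.33), CDCA2 (-0.46) and DLGAP5 (-0.49). AURKA, CDCA2 and FPR2 were not called at 72 h, with -0.03, -0.13 and 0.35. No gene was called at 48 h without replicate 2 and 1 was called without replicate 3.

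Of the 174 genes called higher at 72 h, 160 (92.0%) had a positive difference at 48 h, as did 49.5% of all genes. Of the 99 called lower, 86 (86.9%) had a negative difference, as did 50.5% of all genes. Over all genes the differences at 72 and 48 h had a Pearson correlation of 0.36 (Spearman 0.27), described over 18132 genes that share the arrays and are not independent. The differences were smaller at 48 h, with a median of 0.25 for the higher and -0.09 for the lower genes. At 24 h no gene was called (0%), with 898 genes at an unadjusted p under 0.05 and 1 gene called with the block. Of the higher genes 69.5% and of the lower genes 68.7% had the same sign at 24 h, against 45.5% and 54.5% of all genes, and the correlation over all genes was 0.06.

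**Figure D4:**
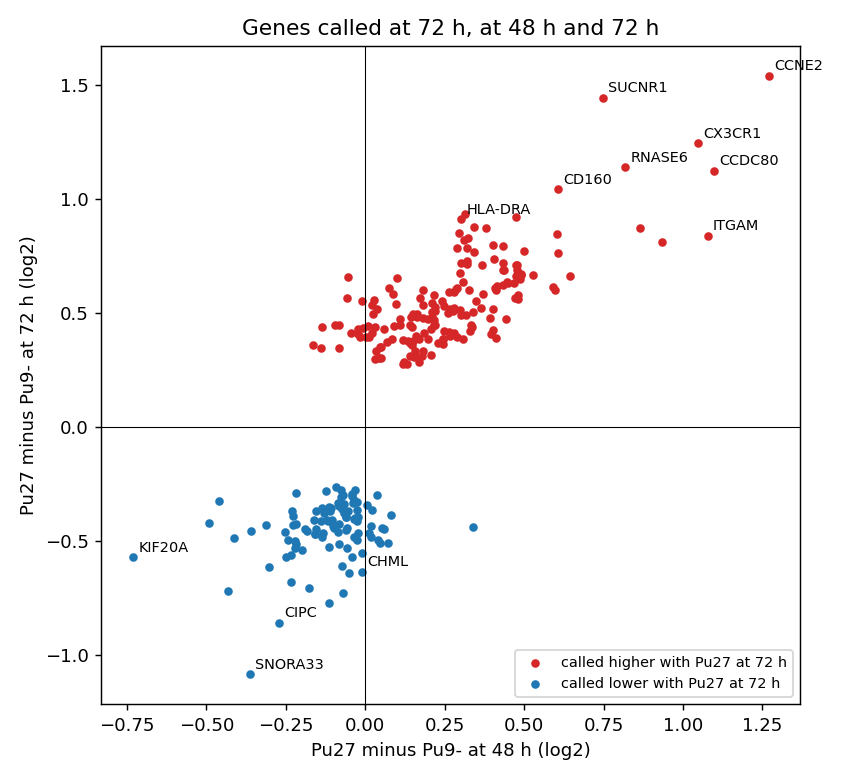
The 273 genes called at 72 h are placed by their difference Pu27 minus Pu9- (log2) at 48 h on the x axis and at 72 h on the y axis. Of the 174 genes called higher (red) 160 lie right of 0, and of the 99 called lower (blue) 86 lie left of 0.

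The difference at 72 h was tested against the mean of the differences at 24 and 48 h. This interaction called 5 genes (0.0276%), 3 positive and 2 negative, and 14 with the replicate block. SUCNR1 differed by 0.13 at 24 h, 0.75 at 48 h and 1.44 at 72 h, an interaction of 1.01 (adjusted p = 0.0307). In the Pu9- arrays its mean level was 9.98 at 24 h, 8.99 at 48 h and 8.95 at 72 h, and in the Pu27 arrays it was 10.11, 9.74 and 10.40. HLA-DRA differed by -0.12, 0.30 and 0.91 at the 3 times, an interaction of 0.82 (adjusted p = 0.0395). Its level was higher at 72 h than at 24 h in both groups, from 6.02 to 7.59 with Pu9- and from 5.90 to 8.50 with Pu27. LSM4, a subunit of the ring that binds U6 RNA, differed by -0.14, 0.09 and 0.44, an interaction of 0.46 (adjusted p = 0.0425). CHML differed by 0.05, -0.01 and -0.63, an interaction of -0.65 (adjusted p = 0.0395). CCDC81 was the other gene and was near background. With Pu9- replicate 2 or 3 or Pu27 replicate 1 left out no gene was called, without Pu27 replicate 2 there were 2, without Pu27 replicate 3 there were 24 and without Pu9- replicate 1 there were 43. With equal array medians only CCDC81 passed (adjusted p = 0.0457), the others lying between 0.0518 and 0.0900.

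**Figure D5:**
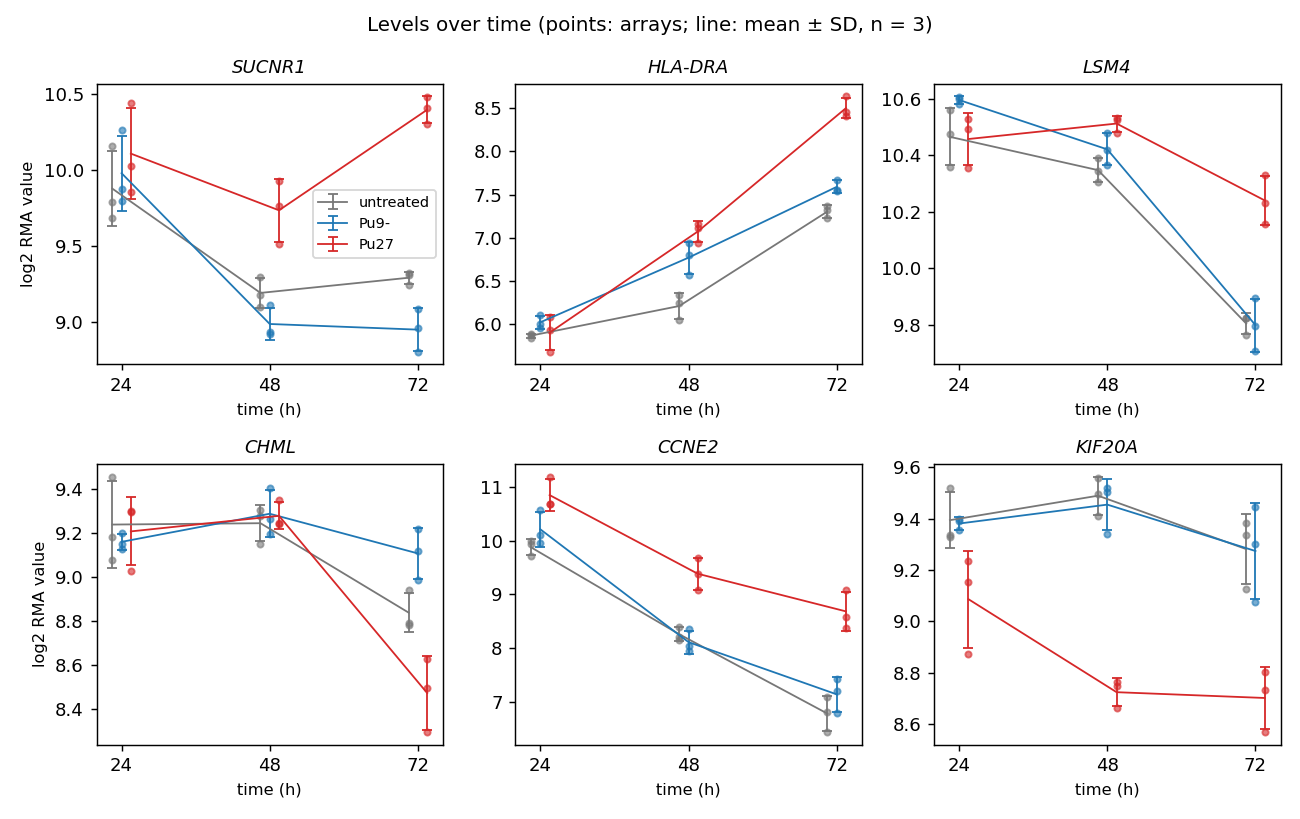
Log2 RMA values of 6 genes at 24, 48 and 72 h in untreated cells (grey), cells given Pu9- (blue) and cells given Pu27 (red), with points for arrays and lines for the mean ± SD of 3 arrays. The scale differs between genes. SUCNR1, HLA-DRA, LSM4 and CHML were called in the test of 72 h against the earlier times, and CCNE2 and KIF20A were not.

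Set beside untreated cells at 72 h, Pu27 gave 922 called genes (5.08%; 533 higher, 389 lower) and Pu9- gave 174 (0.96%; 82 higher, 92 lower). With the replicate block Pu9- gave 459, but it gave 0 in a fit of the 12 arrays of 72 h and without replicate 2 or replicate 3, 4 without Pu9- replicate 2 and 16 without Pu9- replicate 3. The calls of CCDC80, SOCS6 and LARP1B with Pu9- given next were among those that ended in the settings with 0. Without Pu9- replicate 1 there were 1200. Pu27 gave 375 in the arrays of 72 h, and 68 and 98 without replicate 2 and replicate 3. These comparisons share arrays with that of the oligonucleotides, so each is given by its own values only. In CCNE2 the difference from untreated cells was 1.90 with Pu27 (adjusted p = 4.52e-06) and 0.36 with Pu9- (0.574). CD160 was at 1.45 and 0.41, HLA-DRA at 1.20 and 0.29, RNASE6 at 1.66 and 0.52 and KIF20A at -0.58 and -0.01, in the same order. CCDC80 was called with both, at 1.78 and 0.66 (adjusted p = 0.0317 with Pu9-). For SUCNR1 the values had opposite signs, 1.10 with Pu27 (adjusted p = 1.33e-05) and -0.34 with Pu9- (0.293). SOCS6 and LARP1B were at -0.06 and -0.05 with Pu27 and at 0.58 and 0.52 with Pu9-, and for these genes the Pu9- arrays were called against untreated cells (adjusted p = 0.0202 and 0.0228) and the Pu27 arrays were not. The list medians against untreated cells were 0.36 with Pu27 and 0.16 with Pu9- for DNA replication, 0.20 and -0.02 for monocyte genes, 0.16 and -0.08 for MHC class II and -0.18 and 0.04 for ribosome biogenesis.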

How the data were processed

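U937 cells were treated in culture and their RNA hybridised to Affymetrix 3′ IVT arrays, with cRNA made from 100 ng of total RNA, per the labels' protocols. The deposited values are log2 values. RMA (background correction, quantile normalisation and probe summary) and limma are named in the submitters' processing notes, without versions or settings. The table held 49495 probe sets. After the controls were set aside 49293 remained, of which 44988 had a single gene symbol. Each of 18132 genes was represented by its brightest probe set, judged by the mean of the 39 arrays, and no dim gene was removed.

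The main test was limma (version 3.58.1, R 4.3.3) in 1 fit of 13 group means over 39 arrays (26 residual and 7.13 prior degrees of freedom), with Benjamini-Hochberg adjustment over all genes and a threshold of 0.05. Values after ± are standard errors unless an SD is named. The number of arrays limits the precision. The labels mention 3 repeat experiments without tying replicate numbers to them. Same-numbered Pu27 and Pu9- arrays deviated together from their group means (correlations over genes of 0.15, 0.19 and 0.27), all over 0.1, so the numbers were taken as pairs and a fit with the number as a block was also run. Genes were named by rule: MYC, the 15 largest calls in each direction with a level of at least 6 and groups that do not overlap (136 higher and 84 lower genes qualified), the 3 largest members of each list with all called members up to 6, up to 3 called interaction genes in each direction at that level and up to 5 genes called at 24 or 48 h. AURKA, CDCA2, DLGAP5, FPR2, LRRC7, CCDC81, CIITA, CD74, RFX5, RFXAP, RFXANK, CD14, CD163, MRC1, ELANE and PRTN3 were named after their values were seen. So were the called genes outside the lists, IFITM1, E2F5, XRCC4, RAD23B, XPA, UBE2T, FIGNL1, MDN1, NOC3L, ZNHIT6, DDX10, GTPBP4, NOL8 and MTREX. The lists were drawn from general knowledge. The members and lists were chosen with earlier results of these data known, and they are described by counts and medians without a test of the list. Alternatives changed the samples, the block, the probe sets, the filter, the scaling and the prior, or left out arrays.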

Additional observations from a re-analysis of the deposited data

Results flagged for a closer look

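For 5 genes the difference Pu27 minus Pu9- at 72 h differed from the mean of the differences at 24 and 48 h in limma's interaction test. The values were 1.01 for SUCNR1 and 0.82 for HLA-DRA. They were 0.46 for LSM4, -0.65 for CHML and -0.67 for CCDC81. With the replicate block all 5 were called, with adjusted p-values from 4.59e-05 (SUCNR1) to 0.011. With equal array medians only CCDC81 was called (adjusted p = 0.0457, the others 0.0518 to 0.0900), and no gene was called without Pu9- replicate 2, Pu9- replicate 3 or Pu27 replicate 1. The mean level of CCDC81 at 72 h was 3.47 with Pu27 and 3.91 with Pu9-, near background. Of 18132 genes, 1590 had an unadjusted p under 0.05 in this test.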

How the results depend on the processing

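The count of genes called at 72 h, 273 (174 higher, 99 lower), was 15 (15 and 0) in a fit of the 6 arrays, 72 (61 and 11) in the 12 arrays of 72 h, 599 (363 and 236) with the replicate block, 3 (3 and 0) with the block in the 6 arrays, and 519 (260 lower) over every probe set. The lower genes numbered 185 with the mean of a gene's probe sets and 164 at a mean level of 5 or more, and the higher genes 109 with equal array medians. Leaving out arrays gave 1 to 729 calls, 1 to 481 higher and 0 to 248 lower. The 1 gene called without replicate 2 was CCDC80. At 48 h, 12 calls became 48 with the block, 19 with a variance trend and 0 to 17 without a replicate. At 24 h, 0 calls became 1 with the block and 0 to 1 without a replicate. The 5 interaction calls became 14 with the block, 1 with equal medians, 8 with the ACTB covariate, 3 after quantile normalisation (chosen after seeing the data) and 0 to 43 with arrays left out. Calls for Pu27 against untreated cells (922) were 375 in the arrays of 72 h, 1934 over every probe set and 68 to 999 with arrays left out. Those for Pu9- (174) were 0 in the arrays of 72 h, 459 with the block, 374 over every probe set, 269 at a level of 5 or more, 267 after quantile normalisation and 0 to 1367 with arrays left out. Fits of fewer groups have fewer samples, and otherwise the cause was not tested.

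MYC was called in no alternative, with differences from -0.25 to -0.13 when arrays were left out. Among the other genes named by rule 4 values turned sign, none of them called. COL1A2 (-0.00913) and NDRG1 (-0.0507) did so with the mean of the probe sets, GATA1 without replicate 1 (-0.0426, and up to 0.295 without another) and IL7R without replicate 3 (8.2e-05, and down to -0.420 without another). The replicate block ended no call of a named gene and added 11 (ANXA2, BYSL, CDC20, CDKN1A, CMPK2, EXO1, FOSL2, GLA, H2BC12, IFI6 and PIF1), and it changed no other call of them. Of 59 called genes, those named by rule and CCDC81, 37 lost the call without at least 1 of the 6 arrays. CCNE2, CD160 and SUCNR1 lost it only without replicate 2, in 20 alternatives run on them (adjusted p = 0.212, 0.180 and 0.0539). Over every probe set of the lists, 90 of 114 for DNA replication, 48 of 61 for monocyte and 47 of 59 for MHC class II genes were higher. For ribosome biogenesis 64 of 77, for mitosis 54 of 83 and for G-quadruplex helicases and binding proteins 46 of 56 were lower. Probe sets of 1 gene are not independent. Over every probe set tested the median difference was 0.02, and the share that was higher was not counted.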
